A study of Mus musculus with 8 samples.

Results

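The 10 genes described here carry out or control antigen presentation on major histocompatibility complex class II molecules: H2-Aa, H2-Ab1, H2-Eb1, Cd74, Ciita, H2-DMa, H2-DMb1, H2-DMb2, H2-Oa and H2-Ob. They were chosen by gene symbol among the 31406 genes of a table of read counts, where each symbol was found once. RNA sequencing was done on primary cultures of microglia, the resident macrophages of the brain, from wild-type mouse pups. According to the study's methods the striatum of C57/BL6 pups was the source. All 8 libraries came from cells that were activated after 15 days in culture. Activation lasted 48 h and used lipopolysaccharide (LPS) at 0.01% (v/v) and interferon-γ (IFN-γ) at 0.002% (v/v). Ligands were given 3 times, at 24, 32 and 40 h. In 4 libraries the ligand was SCH 58261, an antagonist of the adenosine A2A receptor (antagonist group). In the other 4 it was SCH 58261 together with 200 nM 2-Cl-IB-MECA, an agonist of the adenosine A3 receptor (dual group). The comparison therefore asks whether adding the A3 agonist altered these genes in activated cells in which the A2A receptor was already blocked.

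Several points limit how far these cells serve as a model. The groups follow the sample titles, and the treatment field of the same labels contradicts them, since 2-Cl-IB-MECA appears there for samples whose titles give SCH 58261 alone and is missing where the titles give both. The column names of the count table follow the titles in naming the A2A receptor alone or both receptors. Every direction given here rests on the titles and these names. Both groups received the antagonist and both were activated. The study's methods list a human IFN-γ, and IFN-γ acts poorly across species. Its part in the levels was not tested. The methods name 4 pregnant animals without tying them to libraries, so p-values measure the spread between these samples, which may be technical. Antagonist libraries held 38427491 to 45878639 counts each and dual libraries 32630602 to 45544451. The study's methods report a high purity of microglia by labelling of the surface protein CD11b. RNA of markers of other cell types was nevertheless counted here, and sums of marker RNA do not measure shares of cells. The 8 microglia markers summed to between 590 and 627 CPM (counts relative to library size, scaled by the trimmed mean of M values, TMM), the 6 astrocyte markers, among them Gfap and Slc1a3, to between 5771 and 6275, and the 6 fibroblast markers, among them Col3a1 and Dcn, to between 2369 and 2986. The ranges of the 2 groups overlapped for each of these 3 lists. Sums over different genes depend on gene length. With each gene's CPM divided by its length in kb, the mean sums were 175 for microglia, 991 for astrocyte and 309 for fibroblast markers. In such bulk samples fewer cells of a type and less RNA per cell cannot be told apart.

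Class II molecules are pairs of an alpha and a beta chain that display peptides from ingested protein to CD4+ T cells. The chains assemble in the endoplasmic reticulum around the invariant chain, encoded by Cd74, which fills the groove and leads the complex to endosomes. There proteases cut the invariant chain down to a short peptide, H2-DM exchanges that peptide for antigen, and H2-DO holds H2-DM back. Transcription of these genes depends on the coactivator CIITA, which does not bind DNA itself but sits on factors bound to the X and Y boxes of their promoters. IFN-γ induces Ciita through JAK kinases and IRF1. In resting brain tissue microglia express little class II and gain it on activation. C57BL/6 mice make no alpha chain from H2-Ea and therefore no I-E dimer at the surface, although H2-Eb1 is transcribed.

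In the GRCm38 (mm10) coordinates of the table, 8 of the 10 genes lay on chromosome 17 within 223.859 kb, from the start of H2-Oa at 34092340 to the end of H2-Eb1 at 34316199. H2-DMa occupied chr17:34135182-34139101 on the plus strand, H2-DMb2 chr17:34143307-34151553 and H2-DMb1 chr17:34153072-34160230, both on the plus strand. H2-Ob lay at chr17:34238903-34245907 and H2-Ab1 at chr17:34263209-34269418, both on the plus strand, and H2-Aa at chr17:34282744-34287827 on the minus strand. Outside this cluster, Ciita lay at chr16:10480059-10528418 on the plus strand. H2-DMb1 and H2-DMb2, both encoding the beta chain of H2-DM, are neighbours and near copies. In GENCODE transcripts their longest coding sequences were 786 bases each and differed at 32 positions. The longest run of identical coding bases was 221 bases within a single exon, at chr17:34157299-34157519 in H2-DMb1 and chr17:34148604-34148824 in H2-DMb2. Reads were paired-end according to the study's methods. The run is shown because a read pair that falls wholly within it cannot be assigned to one of the 2 genes. This bears on the only member with an unadjusted p under 0.05.

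H2-DMb1 and H2-DMb2, shared coding run: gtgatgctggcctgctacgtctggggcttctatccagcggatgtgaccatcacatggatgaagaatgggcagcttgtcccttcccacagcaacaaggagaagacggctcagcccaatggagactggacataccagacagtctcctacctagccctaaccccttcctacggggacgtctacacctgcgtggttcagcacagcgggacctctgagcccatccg

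The whole transcripts were compared by their words of 31 bases. Of the words of H2-DMb1, 31.4% also occurred in H2-DMb2, and of those of H2-DMb2, 29.7% also occurred in H2-DMb1. With all other genes counted, the share was 36.6% for H2-DMb2 and stayed at 31.4% for H2-DMb1. The next largest shares arose where genes overlap on opposite strands, 18.3% of the words of H2-Oa with BC051537 and 9.23% of those of H2-DMa with Brd2. The strand setting of the counting is not given in the sources used here, so reads over these overlaps may come from either gene. For the remaining members at most 2.77% of the words occurred in another gene.

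Promoter windows from RefSeq (GRCm38.p6, 250 bases before to 50 after a transcription start) were matched by symbol for 7 of the 10 members. They were searched on both strands for the Y box as ATTGG, the core bound by NF-Y, and for the X box as AGNAACNGA, the core bound by the RFX complex. These letter patterns do not overlap each other. These members had 8 windows, 2 of them for H2-DMa. The Y box letters were found in 7 of the 8, against 37.4% of 32851 windows of the same length, and the X box letters in 3 of the 8, against 5.35% of windows. Both patterns occurred in the windows of H2-DMb1, H2-Eb1 and H2-Oa, against 1.98% of windows. The H2-DMa window with the letters belongs to a RefSeq start that lies upstream of the gene's start in the table and in no GENCODE transcript. Stretches of 104 bases around the Y box, with matched letters in capitals, are shown for a classical alpha chain, a classical beta chain and the 2 copies of the H2-DM beta chain.

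H2-Aa, chr17:34287838-34287941, minus strand: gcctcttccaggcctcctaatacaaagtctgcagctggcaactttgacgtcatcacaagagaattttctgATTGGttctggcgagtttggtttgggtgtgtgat
H2-Eb1, chr17:34305738-34305841, plus strand: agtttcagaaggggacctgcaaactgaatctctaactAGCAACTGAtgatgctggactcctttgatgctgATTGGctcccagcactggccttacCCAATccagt
H2-DMb1, chr17:34153060-34153163, plus strand: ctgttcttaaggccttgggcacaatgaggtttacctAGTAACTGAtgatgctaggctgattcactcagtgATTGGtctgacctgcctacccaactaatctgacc
H2-DMb2, chr17:34145089-34145192, plus strand: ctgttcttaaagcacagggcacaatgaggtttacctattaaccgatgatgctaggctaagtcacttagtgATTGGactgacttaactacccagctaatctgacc

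The X box letters stood 95 bases before the start in H2-DMb1 and 92 bases before it in H2-Eb1, in each case upstream of the Y box. In H2-Oa they were on the minus strand, began 4 bases before the start and ran across it, so they lay downstream of its Y box. The stretches of H2-DMb1 and H2-DMb2 matched at 90 of 104 positions when laid side by side without gaps, and the X box letters were matched only in the first. A match of letters is a description and does not show that a factor was bound.

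**Figure D1:**
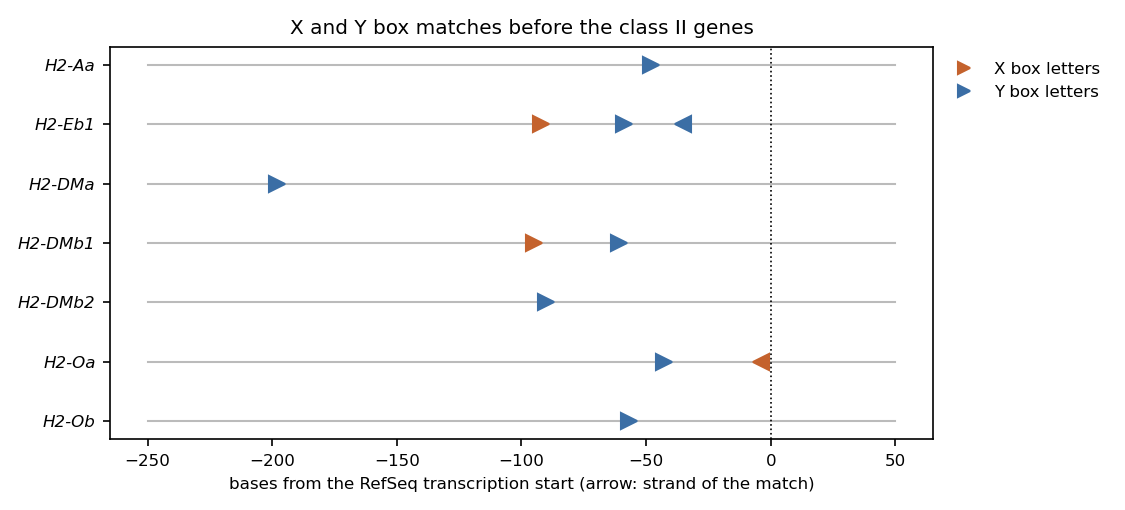
Positions of the X box and Y box letter patterns from 250 bases before to 50 bases after the RefSeq start of 7 class II genes, with arrowheads pointing along the strand of the match. The Y box matches of H2-Aa, H2-Eb1, H2-DMb1, H2-Oa and H2-Ob lay 35 to 61 bases before the start. That of H2-DMb2 lay 90 bases before it and that of H2-DMa, found in 1 of its 2 windows, 198 bases before it.

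The class II genes were unequally abundant, as shown by CPM divided by gene length in kb, the scale on which genes can be compared. Cd74 was the highest at a mean level of 32.4 CPM per kb over the 8 libraries, above 91.4% of the 18756 genes tested. H2-DMa followed at 5.71 CPM per kb and H2-DMb1 at 2.95 CPM per kb. The classical chain genes stood well below these, with H2-Ab1 at 0.990, H2-Eb1 at 0.470 and H2-Aa at 0.388 CPM per kb, which is above 28.4%, 18.5% and 16.1% of the genes tested. H2-DMb2 was at 0.923 and H2-Oa at 0.254 CPM per kb. Ciita, the transactivator, was at 0.200 CPM per kb and H2-Ob, the beta chain of H2-DO, at 0.0260 CPM per kb.

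In that order neighbouring genes differed beyond the spread of the 8 libraries in 5 of the 9 steps. The ranges overlapped between H2-Ab1 and H2-DMb2, between H2-Eb1 and H2-Aa, between H2-Aa and H2-Oa, and between H2-Oa and Ciita. Cd74 alone held 66.1% to 71.0% of the summed CPM of the 10 members, and all 10 together took 0.00617% to 0.00695% of the counts in each library. The level of Cd74 per kb was therefore far above that of the chains it accompanies, between 28.0 and 44.3 times that of H2-Ab1 within a library.

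**Figure D2:**
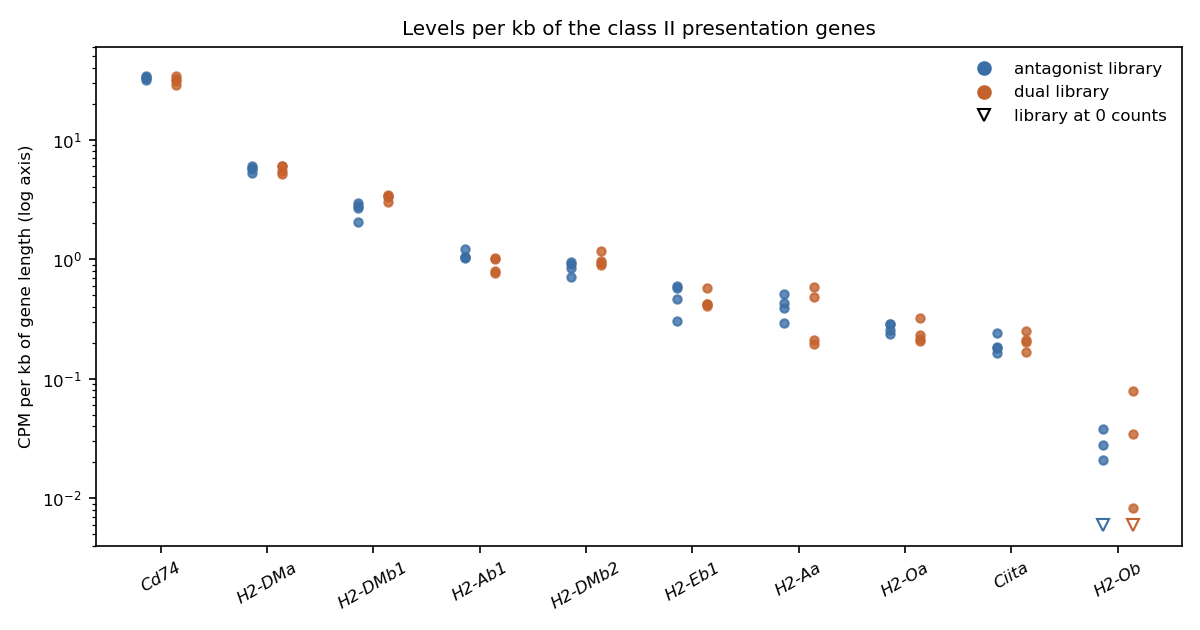
Level of each class II gene in CPM per kb of gene length on a log axis, with 1 point per library and open triangles for libraries with 0 counts. Cd74 stood highest at 32.4 CPM per kb on average and H2-Ob lowest at 0.0260, and the 2 groups overlapped for 8 of the 10 genes.

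Adding the A3 agonist left no class II gene called. Of the 10 members, 9 passed the filter on low counts, and 0 of these 9 had an adjusted p under 0.05 in edgeR's quasi-likelihood test with Benjamini-Hochberg adjustment, against 39 of 18756 genes (0.208%). By DESeq2's Wald test 0 of the 2 members with an adjusted p were called, against 381 of 11313 genes (3.37%), and for the other 8 members DESeq2 gave no adjusted p. At an unadjusted p under 0.05 there was 1 member, H2-DMb1, with either tool, against 12.8% of all genes in edgeR. Of the 9 tested members 3 were higher and 6 lower in the dual group. The median of their log2 fold changes was -0.073, against 0.0038 over all genes tested. The levels of the 2 groups did not overlap for 2 of the 9, H2-DMb1 and H2-Ab1, against 7.42% of all genes. The count of 39 genes rested on single libraries: it was 172, 5, 6 and 0 without antagonist libraries 1, 2, 3 and 4 in turn, and 0 without dual library 3. The count of members called was 0 in each of these fits. The 95% intervals of the fold changes ran from -0.17 to 0.028 on the log2 scale for Cd74 and from -0.79 to 0.56 for H2-Aa.

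**Figure D3:**
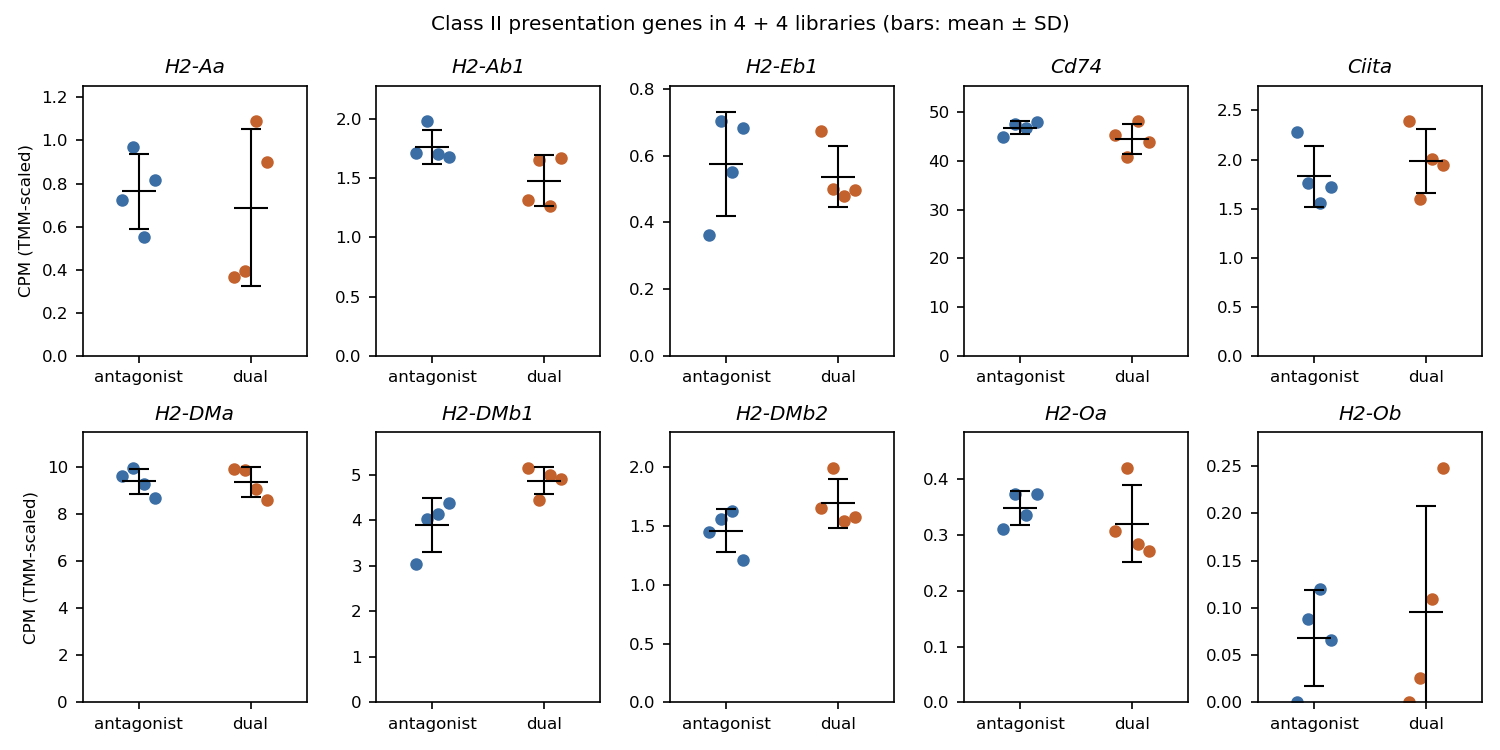
TMM-scaled CPM of the 10 class II genes in each library, antagonist group left and dual group right in each panel, with the mean and SD of the 4 libraries. H2-DMb1 lay higher in all 4 dual libraries than in any antagonist library, H2-Ab1 lay lower, and the groups overlapped for the other 8 genes.

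The classical chains came first. H2-Ab1 encodes the beta chain of I-A, the class II molecule that C57BL/6 cells display. It had 66, 90, 71 and 76 counts in antagonist libraries 1 to 4 and 43, 63, 58 and 74 in dual libraries 1 to 4. Scaled to library size, these were 1.71, 1.98, 1.70 and 1.67 CPM against 1.32, 1.66, 1.26 and 1.67 CPM. The groups did not overlap, although the lowest antagonist library and the highest dual library were both at 1.67 CPM, and dual libraries 1 and 3 were the low ones. The mean was 1.77 ± 0.14 CPM (SD, n = 4) in the antagonist group and 1.48 ± 0.22 CPM (SD, n = 4) in the dual group, with a two-sided exact permutation p of 0.0286, the smallest that 4 libraries against 4 can give. That p was not adjusted for the 10 members tested, and it was 0.0571 with raw CPM. The edgeR log2 fold change was -0.26 with a 95% interval from -0.61 to 0.093 and an adjusted p of 0.56, so the difference did not pass the test over all genes.

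H2-Aa encodes the alpha chain that pairs with H2-Ab1. Its counts were 28, 44, 23 and 37 in the antagonist libraries and 12, 15, 50 and 40 in the dual libraries, or 0.726, 0.967, 0.550 and 0.814 CPM against 0.368, 0.394, 1.09 and 0.902 CPM. Dual libraries 1 and 2 were the lowest of all 8 and dual library 3 the highest, so the dual range enclosed the antagonist range. This scatter within groups was 4.48 times the variance that counting alone gives, against 0.910 times for its partner H2-Ab1. It was not particular to H2-Aa, since that of Cd74 was 5.22 times. The log2 fold change of -0.12 had an adjusted p of 0.92 in edgeR. It ran down to -0.43 with 1 library left out and turned positive without antagonist library 2, at 0.017, and without dual library 1 or 2, at 0.071 and 0.074. Within a library the ratio of H2-Aa to H2-Ab1 per kb ran from 0.208 to 0.753.

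H2-Eb1, the beta chain of I-E, was counted 14, 32, 23 and 31 times in the antagonist libraries and 22, 19, 22 and 22 times in the dual libraries. These were 0.363, 0.704, 0.550 and 0.682 CPM against 0.674, 0.499, 0.479 and 0.496 CPM, and the dual levels fell inside the range of the antagonist levels. Its log2 fold change, -0.12, had an adjusted p of 0.90 in edgeR and ran from -0.28, without antagonist library 1, to -0.0098, without antagonist library 2.

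Cd74, the invariant chain, lies at chr18:60803848-60812646 on the plus strand and held the most counts of all members, 15223. Its counts were 1731, 2168, 1958 and 2182 in the antagonist group and 1476, 1553, 2211 and 1944 in the dual group. The levels were 44.9, 47.7, 46.8 and 48.0 CPM against 45.2, 40.8, 48.2 and 43.9 CPM. Dual libraries 2 and 4 were below every antagonist library and dual library 3 was the highest of the 8, so the groups overlapped. The antagonist mean of 46.9 ± 1.41 CPM (SD, n = 4) compared with 44.5 ± 3.06 CPM (SD, n = 4) in the dual group, at an exact permutation p of 0.286. The edgeR log2 fold change was -0.073 with SE 0.048 and an adjusted p of 0.56. Without dual library 3 it was -0.12 with an adjusted p of 0.38, and without dual library 2 it was -0.035 with an adjusted p of 0.82. The 95% interval of the fit to all 8 libraries corresponds to between 0.886 and 1.02 times the antagonist level.

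Ciita, the master coactivator of the family, had 88, 80, 65 and 78 counts in the antagonist libraries and 78, 61, 92 and 86 in the dual libraries. The levels were 2.28, 1.76, 1.56 and 1.72 CPM against 2.39, 1.60, 2.00 and 1.94 CPM. Library 1 was the highest in both groups and the groups overlapped. The edgeR log2 fold change was 0.12 with SE 0.17 and an adjusted p of 0.83, and the interval from -0.24 to 0.47 spans both directions. With 1 library left out the fold change ran from 0.025, without dual library 1, to 0.24, without antagonist library 1. The exons of Ciita overlap those of Dexi on the opposite strand over 329 of 9535 bases.

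Next came the genes of H2-DM. H2-DMa, the alpha chain of the peptide exchanger, was counted 370, 453, 388 and 394 times in the antagonist libraries and 323, 375, 416 and 380 times in the dual libraries. Its levels were 9.59, 9.96, 9.28 and 8.67 CPM against 9.90, 9.86, 9.06 and 8.57 CPM. Library 4 was the lowest in both groups, and the groups overlapped. Its log2 fold change was -0.0075 with SE 0.077 and an adjusted p of 0.98 in edgeR, with a 95% interval from -0.17 to 0.15, and its sign turned without antagonist library 1 or 2 or dual library 3 or 4, at 0.0021 to 0.032, and with raw CPM.

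H2-DMb1, a beta chain of the exchanger, had 117, 183, 173 and 199 counts in antagonist libraries 1 to 4 and 168, 169, 229 and 217 in dual libraries 1 to 4. The levels were 3.03, 4.02, 4.14 and 4.38 CPM against 5.15, 4.44, 4.99 and 4.89 CPM. All 4 dual libraries were above all 4 antagonist libraries, and antagonist library 1 was the lowest. The antagonist mean of 3.89 ± 0.59 CPM (SD, n = 4) compared with 4.87 ± 0.30 CPM (SD, n = 4) in the dual group, at a two-sided exact permutation p of 0.0286. With counts expressed per microglia marker count that p was 0.0571. The edgeR log2 fold change was 0.32, or 1.25-fold, with SE 0.12 and a 95% interval from 0.071 to 0.56, the only interval among the members that did not include 0. Its unadjusted p was 0.0144 and its adjusted p over all genes tested was 0.25, so H2-DMb1 was not called. The adjusted p lay between 0.24 and 0.40 over the 12 alternatives that gave one, and without antagonist library 1 the log2 fold change was 0.22 with SE 0.11 and an unadjusted p of 0.0573 in edgeR, no longer under 0.05.

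H2-DMb2, the neighbouring copy, was counted 56, 71, 68 and 55 times in the antagonist libraries and 54, 76, 71 and 70 times in the dual libraries, or 1.45, 1.56, 1.63 and 1.21 CPM against 1.66, 2.00, 1.55 and 1.58 CPM. The groups overlapped, with antagonist library 4 lowest and dual library 2 highest. The log2 fold change was 0.21 with SE 0.17 and an adjusted p of 0.66 in edgeR, and it was 0.12 without dual library 2 and 0.13 without antagonist library 4.

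Since read pairs wholly within the shared run cannot be assigned to one copy, the 2 beta chain genes were also summed. This step was added after the data were seen. How such read pairs were counted is not given in the sources used here, so the sum may lack them. The summed level was 4.48, 5.58, 5.77 and 5.59 CPM in the antagonist group and 6.80, 6.44, 6.54 and 6.47 CPM in the dual group. The groups did not overlap. H2-DMb1 held between 67.6% and 78.3% of the counts of the pair, so the sum largely repeats its pattern and is given with no test. The lowest share, in antagonist library 1, had a 95% Wilson interval from 60.3% to 74.2% and the highest, in antagonist library 4, one from 72.9% to 83.0%. The mean share was 72.5 ± 4.42% (SD, n = 4) in the antagonist group. It was 74.1 ± 3.46% (SD, n = 4) in the dual group, and the groups overlapped. Per kb, the pair stood at 0.611 ± 0.087 times H2-DMa (SD, n = 4) in the antagonist libraries and at 0.752 ± 0.049 times (SD, n = 4) in the dual libraries, without overlap. Intervals on shares of counts cover counting error only.

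The genes of H2-DO, the brake on H2-DM that is best known from B cells, were near the limit of detection. H2-Oa, the alpha chain, was counted 12, 17, 14 and 17 times in the antagonist libraries and 10, 16, 13 and 12 times in the dual libraries. Its levels of 0.311, 0.374, 0.335 and 0.374 CPM against 0.307, 0.421, 0.283 and 0.271 CPM overlapped, and the log2 fold change of -0.13 had an adjusted p of 0.91 in edgeR, with values from -0.29 to -0.058 when 1 library was left out. H2-Ob, the beta chain, had 0, 4, 5 and 3 counts against 0, 1, 5 and 11 counts, 29 in all, and did not pass the filter. A count of 0 allows up to 3 counts, which is 0.0778 CPM in antagonist library 1 and 0.0920 CPM in dual library 1. The groups overlapped, with dual library 4 highest at 0.248 CPM. Without the filter edgeR gave H2-Ob a log2 fold change of 0.51 with SE 0.83 and an adjusted p of 0.89, and DESeq2 gave 0.51 with SE 1.07, so the error exceeded the difference in both. The B cell markers were low too, with 5 of 6 at between 4 and 54 counts over the 8 libraries and Cr2, with 244, the only one tested. The T cell markers were at between 2 and 30 counts. Of the dendritic cell markers Flt3 had 14 counts, Clec9a 9 and Itgax 67, whereas Zbtb46 with 3185, Xcr1 with 380 and Ccr7 with 200 passed the filter. The summed B cell marker level was 0.985 to 1.20 CPM in the antagonist group and 0.766 to 1.55 CPM in the dual group, and that of the dendritic cell markers 11.4 to 12.7 and 10.1 to 12.1 CPM. Of the 3 that were tested, Ccr7, a chemokine receptor of migrating dendritic cells, had a log2 fold change of -1.18 with an adjusted p of 0.081 in edgeR and groups without overlap. Zbtb46 had one of -0.054 with an adjusted p of 0.84 in edgeR, and Xcr1 one of 0.019 with an adjusted p of 0.98. The part of these markers in the levels of the class II genes was not tested.

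**Figure D4:**
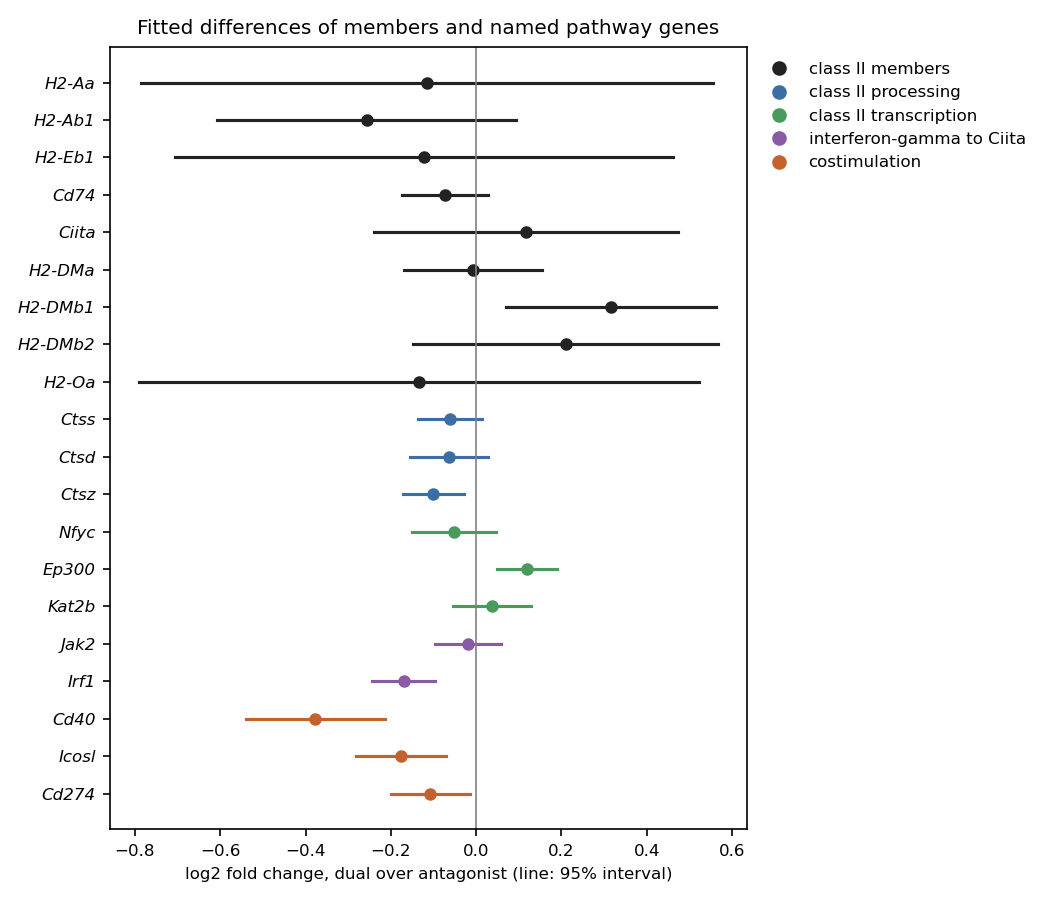
Log2 fold change of the dual over the antagonist group from edgeR for the 9 tested class II genes and 11 genes of the pathway lists, with 95% intervals as lines. The interval of H2-DMb1, from 0.071 to 0.56, was the only one of a class II gene that left out 0, and of the pathway genes drawn those of Irf1, Cd40, Ctsz, Icosl and Cd274 lay below 0 and that of Ep300 above it.

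The wider pathway was followed through 42 genes in 4 lists, of which 38 were tested. In edgeR 0 of 38 were called. At an unadjusted p under 0.05 there were 9 of 38, 2 higher and 7 lower, which is 23.7% against 12.8% of all genes, and 7 of 38 had groups without overlap, which is 18.4% against 7.42%. DESeq2 called 4 of the 36 with an adjusted p, Ep300, Irf1, Cd40 and Icosl, against 3.37% of all genes. Without antagonist library 1 edgeR called 3 of the 38, Irf1, Cd40 and Icosl, in a fit that called 172 of 19064 genes.

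Of the 14 listed genes of class II processing 12 were tested, 4 higher and 8 lower. The median of their log2 fold changes was -0.029, and 0 were called. H2-Ea and H2-Eb2 were not analysed here. Ctss, cathepsin S, which makes the last cuts in the invariant chain, averaged 316 ± 11.7 CPM (SD, n = 4) in the antagonist libraries. Its dual mean was 303 ± 10.4 CPM (SD, n = 4) and its adjusted p in edgeR 0.50. Ctsd, the aspartic protease cathepsin D, was the most abundant of the list per kb and had a log2 fold change of -0.064. Ctsz, cathepsin Z, had the lowest unadjusted p of the list, 0.0083, with a log2 fold change of -0.10 and an adjusted p of 0.20. Ctse, cathepsin E, named here after its values were seen, was the least abundant of the tested genes at 0.247 CPM per kb. It had the lowest log2 fold change of the list, -0.26 with SE 0.29 and an adjusted p of 0.77 in edgeR. None of the 12 had groups without overlap.

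Of the 10 transcription factors and coactivators that act with CIITA, all were tested, 7 higher and 3 lower. Their median was 0.019 on the log2 scale, and 0 were called. The subunits of the RFX and NF-Y complexes had log2 fold changes from -0.051, in Nfyc, to 0.025, in Nfya. Ep300, a histone acetyltransferase, was the one with groups that did not overlap, at 135 ± 2.80 CPM (SD, n = 4) against 147 ± 3.39 CPM (SD, n = 4) in the dual group. Its log2 fold change was 0.12, and the adjusted p in edgeR was 0.13. Kat2b, another acetyltransferase, was the most abundant per kb and had a log2 fold change of 0.037.

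The route from the IFN-γ receptor to Ciita held 10 tested genes, 2 higher and 8 lower. Their median was -0.019 on the log2 scale, and 0 were called. Irf1, the factor that switches on the IFN-γ responsive promoter of Ciita, was at 127, 133, 138 and 137 CPM in the antagonist libraries and 122, 119, 118 and 118 CPM in the dual libraries. The groups did not overlap. Its log2 fold change was -0.17 with SE 0.035 and its adjusted p in edgeR of 0.0557 was just above the threshold. Over the alternatives that adjusted p ran from 5.6e-04 to 0.18. Jak2, the receptor kinase, was the most abundant of the list per kb, with a log2 fold change of -0.019. Whether the levels of Irf1 and Ciita are related was not tested.

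The costimulatory genes act beside class II on the T cell. Of 8 listed 6 were tested, 2 higher and 4 lower. Their median was -0.14 on the log2 scale, and 0 were called. Cd40, the receptor through which T cells license presenting cells, was at 10.9, 10.5, 12.1 and 12.4 CPM in the antagonist libraries and 9.26, 9.38, 8.63 and 8.12 CPM in the dual libraries. The groups did not overlap, and the log2 fold change was -0.38 with SE 0.078 and an adjusted p of 0.0541 in edgeR, ranging from 0.0031 to 0.18 over the alternatives. Icosl, the ligand of ICOS, had a log2 fold change of -0.18 with an adjusted p of 0.14, and Cd274, which encodes the inhibitory ligand PD-L1, one of -0.11 with an adjusted p of 0.31. Cd83, a maturation marker named here after its values were seen, had the lowest log2 fold change of the list, -0.46 with an adjusted p of 0.16, whereas Cd80, named likewise, had 0.20 with an adjusted p of 0.27. The summed level of the list was 203 to 224 CPM in the antagonist group and 190 to 203 CPM in the dual group. The groups narrowly did not overlap, with the lowest antagonist library at 202.88 CPM and the highest dual library at 202.67 CPM.

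**Figure D5:**
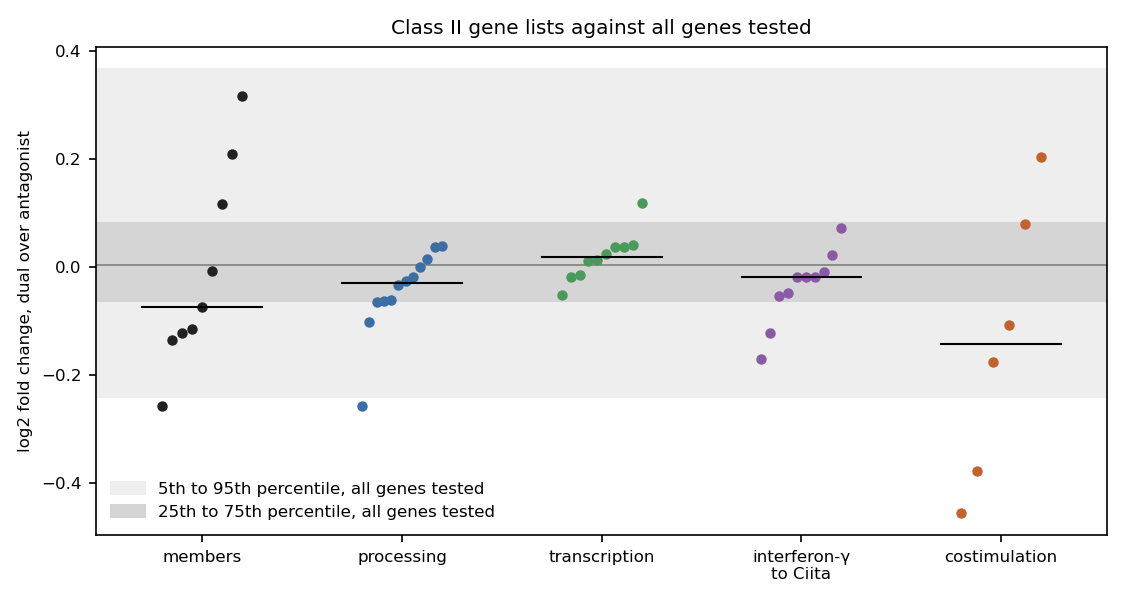
Log2 fold change of the dual over the antagonist group for the tested genes of 5 lists, with list medians as black lines and shaded bands for the spread of the 18756 single genes tested. The medians ran from -0.14 for costimulation to 0.019 for transcription, beside 0.0038 over all genes. The outer band, from the 5th to the 95th percentile at -0.24 and 0.37, describes single genes and is no measure for the medians.

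The microglia markers did not move together between the groups: of 8 tested, 4 were higher and 4 lower. Their median was 0.016 on the log2 scale, and 0 were called. Csf1r, the receptor microglia need to survive, had a log2 fold change of 0.11 and Aif1, which encodes Iba1, one of -0.21. The fibroblast markers had a median of 0.11, with 5 of 6 higher, and the border macrophage markers a median of 0.24 over the 4 tested, 3 higher and 1 lower. The lower one, Ms4a7, had the smallest unadjusted p of these 4, 0.0109, with a log2 fold change of -0.15 and an adjusted p of 0.22 in edgeR. Border macrophages also carry class II, and their summed level was 122 to 153 CPM in the antagonist group and 134 to 154 CPM in the dual group. The part of these markers in the levels of the class II genes was not tested.

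The genes whose levels correlated most with an average of 4 class II genes were sought among 10713 protein-coding genes. The pattern was the mean of the centred log2 CPM of H2-Aa, H2-Ab1, H2-Eb1 and Cd74 over the 8 libraries, which was highest in antagonist library 2 and lowest in dual library 2. The 4 genes did not share one pattern. In dual library 3 H2-Aa was the highest of the 8 libraries, at 1.09 CPM, and H2-Ab1 the lowest, at 1.26 CPM. Each gene had equal weight, although H2-Aa and H2-Eb1 had at most 50 and 32 counts in a library. Gpr173 had the highest Pearson r, 0.955 (Spearman rho 0.952), followed by Elof1 at 0.929 (rho 0.881), Ndufa1 at 0.924 (rho 0.810), Pigx at 0.914 (rho 0.905) and Serpina3i at 0.913 (rho 0.905). Without the 2 libraries farthest from the median, antagonist library 2 and dual library 2, r was 0.929 for Gpr173, 0.830 for Elof1, 0.827 for Ndufa1, 0.903 for Pigx and 0.821 for Serpina3i. These are the 5 highest of 10713 values over only 8 libraries that share one scaling, so they are a description and carry no p.

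A second table holds the authors' mean scaled counts for the antagonist group and for a control group, the activated cells without ligand according to the study's methods. These are the authors' means with no error given here, and whether both groups were sequenced together is not stated, so they are set side by side without a test. The authors' mean of Cd74 was 2020 with the antagonist and 2861 in the control. For the I-A chains it was 33.0 against 60.1 for H2-Aa and 76.1 against 123 for H2-Ab1, and for H2-Eb1 24.8 against 29.6. That of Ciita was 78.8 against 105. H2-DMb1 was at 168 against 336, whereas its copy H2-DMb2 was at 63.1 against 55.1 and H2-DMa at 404 against 351. H2-Oa stood at 15.0 against 10.1 and H2-Ob at 2.95 against 10.8. Of the 9 members with an average of at least 10, 6 were lower with the antagonist, against 48% of 18861 genes. The values of the 2 copies H2-DMb1 and H2-DMb2 lay in opposite orders in these means.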

How the data were processed

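Libraries were prepared with a SMARTER mRNA-Seq kit per the labels and sequenced on a NovaSeq instrument. The authors aligned reads with HISAT2 and counted them per gene with featureCounts 1.5.0-p3 on mm10, and deposited raw counts for the 8 libraries, which were used as deposited. A second deposited table gave the authors' group means of scaled counts (a normalized signal), which were only set side by side. Its 9 per-sample control columns belong to no sample of this series and were not used. Columns with the authors' fold changes and p-values hold their own comparisons and were not used. The study states its replicate numbers in more than one way, and the 4 and 4 of the labels were used.

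Genes were filtered with filterByExpr (minimum count 10), scaled by TMM and tested with edgeR 4.0.16 (R 4.3.3, glmQLFit and glmQLFTest, two-sided) over all 18756 genes that passed, with Benjamini-Hochberg adjustment and calls at an adjusted p under 0.05. DESeq2 1.42.0 was an alternative. Single levels were compared by two-sided exact permutation tests of the difference of mean CPM over 70 arrangements (smallest p 0.0286), 1 for each of the 10 members. A count of 0 was taken to allow 3 counts. The edgeR fit was tested on simulated counts, and the permutation test on values with a known result. Like-pattern genes were protein-coding nonmembers with a mean log2 CPM (prior count 2) of at least 3. The genes named in the text were all members and, for each pathway list, the 2 with the smallest unadjusted p and the most abundant per kb. Nfya, Ctse, Cd80, Cd83 and the named cell type markers were added after their values were seen. 1 gene chosen by this rule is not reported here, though it is part of the counts and medians of its list. Gene coordinates are those of the table, and coding sequences and 31-base words came from GENCODE M21, where 3 of the 10 members have the same coordinates. Members and lists were chosen with earlier results of these data known.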

Additional observations from a re-analysis of the deposited data

Results flagged for a closer look

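Of the 44 groups of 4 libraries examined for the members and the chosen pathway genes, 4 held a library far from the other 3, where chance alone gives about 1 in 20 groups. H2-Ab1 was at 1.98 CPM in antagonist library 2, above the other 3 antagonist libraries. H2-Eb1 was at 0.674 CPM in dual library 1, above the other 3 dual libraries. Ctsz was at 386 CPM in antagonist library 1, below the other 3, and Irf1 was at 122 CPM in dual library 1, above the other 3.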

How the results depend on the processing

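The number of members called was 0 under all 14 alternatives. Of these, the 1.5-fold minimum could not raise the count, and DESeq2 could call only the 2 members with an adjusted p. The number of genes called over the whole table moved from 39 to 366 without a low-count filter, 17 with the replicate block, 114 scaled to microglia markers, 381 with DESeq2 and 1 with a 1.5-fold minimum, and it ran from 0 to 172 with 1 library left out. The pathway genes called were 3 without the filter, 2 scaled to microglia markers and 4 with DESeq2, and 0 to 3 with 1 library left out. Whether samples of the same replicate number were paired is not known. Their deviations from the group means had correlations of -0.053 to 0.041, and not every library correlated best with its own number. Values this near 0 cannot show whether such samples shared animals. The replicate block changed no call of a named gene. With 1 library left out, the log2 fold change of H2-Aa ran from -0.43 to 0.074, that of H2-DMa from -0.044 to 0.032 and that of Jak2 from -0.037 to 0.011, so their signs turned; with raw CPM the difference of H2-DMa was 0.034 CPM. The cause was not tested. Counts were low for H2-Eb1 and H2-Oa and lowest for H2-Ob, with 29 in all. The scatter within groups was 5.22 times the variance from counting for Cd74 and 4.48 times for H2-Aa. For H2-Ob it was 3.10 times, a ratio that rests on few counts. Since such a ratio grows with the counts at a given relative spread, it does not rank the scatter of these genes.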
